A study of Mus musculus with 15 samples.

Results

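The proteasome genes were followed in CD8+ T cells primed by antigen with or without costimulation. They were taken as the protein-coding genes of GENCODE release M21 whose symbol begins with Psma, Psmb, Psmc, Psmd, Psme, Psmf or Psmg followed by a digit. There were 50 such genes among 21951 protein-coding genes and 55450 genes in all in the count table. A further 4 matching symbols were not protein-coding and did not enter. By role they were 8 alpha and 7 constitutive beta subunits of the 20S core, 3 immunoproteasome subunits, 1 thymus-specific subunit, 6 ATPases and 11 other subunits of the 19S regulatory particle, 3 chaperones of its assembly, 6 activators and inhibitors, and 4 assembly chaperones of the core. Psmc3ip also met the symbol rule, but it encodes a factor of meiotic recombination and is no proteasome gene. It was counted with the 50 and kept apart from the role groups.

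The cells carried the transgenic OT-I receptor, which recognizes a peptide of ovalbumin, and the labels give their strain as OT-1 Tg C57BL/6J. By the study's methods the donors lacked Rag and carried CD45.1, and their naive splenic cells were injected into C57BL/6J recipients of both sexes at ages spanning several months. The Ag group (n = 5) received the peptide with control rat IgG, and the Ag+Costim group (n = 5) received it with agonist antibodies to OX40 and to 4-1BB (CD137), costimulatory receptors of activated T cells. Spleen and lymph node cells were harvested on day 4 by the labels, and somewhat earlier by the methods, and were sorted on CD8, CD45.1 and both chains of the transgenic receptor. The other 5 samples, of naive cells, were not analysed here. RNA was measured by poly(A) RNA sequencing, and the study describes each library as a biological replicate.

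The proteasome degrades proteins marked with ubiquitin. Its 20S core is a barrel of alpha and beta rings in which 3 of the beta subunits cut the substrate, and the 19S particle binds ubiquitin, removes it and unfolds the protein with a ring of ATPases. In lymphocytes and in cells exposed to interferon, Psmb8, Psmb9 and Psmb10 take the place of the catalytic subunits Psmb5, Psmb6 and Psmb7, and the ring activator encoded by Psme1 and Psme2 can cap the core. This immunoproteasome generates many of the peptides shown on MHC class I.

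Short stretches of promoter and of transcript are given first. Of the 50 members, 42 had an entry in a RefSeq promoter table of build GRCm38.p6, with 250 bases before and 50 after each start. The motif CCGGAAG, the core recognized by ETS factors, was searched on both strands and was present for 15 of these 42 members (35.7%), against 9.93% of all 27025 genes in the table. Both members whose groups did not overlap, Psme3 and Psmd2, were among the 15, and so were 6 of 9 non-ATPase subunits and 3 of 5 ATPases of the 19S particle. So was Psme4, the member with the lowest log2 fold change of Ag+Costim over Ag (-0.11). Psma6, Psmg1, Psmg3 and Psmc3ip made up the rest. None of the 4 constitutive beta subunits in the table, of the 3 immunoproteasome subunits or of the 3 chaperones of the 19S particle held it. The motif TGACNNNGC, the core of the antioxidant response element that Nfe2l1 and Nfe2l2 bind, was present for 6 of 42 members (14.3%, against 14.0% of all genes), and CCAAT for 15 (35.7%, against 41.1%). An interferon-related motif, GAAA followed 2 bases later by GAAA, was present for 5 of 42 (11.9%, against 3.99%). These were Psmb3, Psmd4, Psmd9, Psmg4 and Psme1, where it lay 10 bases after the start. None of the 3 immunoproteasome subunits held it. These matches describe the letters of a short window, and the members were not drawn at random from all genes. The genes in the table were not chosen to match the members in abundance. Whether any motif has a part in the differences between the groups was not tested. The stretches below lie upstream of the gene and are written 5′ to 3′ on the gene's strand, with the match in capitals. For Psme3 they cover chr11:101316082-101316137 on the plus strand, for Psmd2 chr16:20651596-20651651 on the plus strand, where the match is the reverse complement, and for Psmb5 chr14:54618023-54618078 on the minus strand, where the capitals mark TGACNNNGC.
Psme3: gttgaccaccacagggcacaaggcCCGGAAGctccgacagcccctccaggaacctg
Psmd2: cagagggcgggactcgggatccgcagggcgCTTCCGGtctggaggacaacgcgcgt
Psmb5: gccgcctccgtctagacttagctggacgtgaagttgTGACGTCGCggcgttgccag

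The second set shows where the 2 main transcripts of Psmb1, a non-catalytic beta subunit, part from each other. Both run through exon 5, whose last base is chr17:15477315 in mm10 on the minus strand. Psmb1-201 then joins exon 6, while Psmb1-202 reads on into the intron that follows (chr17:15476206-15477314, 1109 bases) and meets a stop codon there. GENCODE gives Psmb1-201 a reading frame of 240 codons and Psmb1-202 one of 203 codons. Lower case marks the last 30 bases of exon 5 and capitals the 75 bases that follow, which in Psmb1-202 end with the stop codon.
Psmb1-201: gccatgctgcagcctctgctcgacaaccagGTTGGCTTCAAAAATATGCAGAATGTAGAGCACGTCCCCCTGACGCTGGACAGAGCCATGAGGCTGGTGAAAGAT
Psmb1-202: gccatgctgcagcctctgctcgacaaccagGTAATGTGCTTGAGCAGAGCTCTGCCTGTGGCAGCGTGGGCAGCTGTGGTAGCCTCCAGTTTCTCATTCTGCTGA

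Library totals ran from 59.6 to 449.3 M estimated counts in Ag and from 332.2 to 639.0 M in Ag+Costim. The Ag libraries did not form 1 cluster: Ag replicates 2 and 5 had a count for 21740 and 20674 genes, Ag replicates 1, 3 and 4 for 40363 to 51694, and the Ag+Costim libraries for 28671 to 30283. All 5 markers of CD8 T cells were measured, and their mean level lay between 9.02 and 9.97 log2 CPM in the 10 libraries (CPM, counts relative to a common library total, scaled with TMM factors). The 4 B cell markers lay at 4.68 to 6.10 log2 CPM in Ag replicates 1, 3 and 4, at 1.05 and 1.13 in Ag replicates 2 and 5, and at 1.63 to 2.85 in Ag+Costim. The 4 erythroid markers lay at 2.05 to 8.06 in Ag and 0.52 to 3.31 in Ag+Costim, the 4 myeloid markers at 2.89 to 4.29 and 3.44 to 4.35, and Cd4 at -0.90 to 2.48 and -0.83 to 0.51. None of these markers was at 0 in every library. Because the Ag libraries differed this much, the counts of members called at the gene level and of members without overlap are also given without Ag replicates 2 and 5, and with these as the Ag group alone. The ratios, the usage test and the other gene lists were not rerun in this way.

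Together the proteasome genes took 0.828% to 1.5% of all counts in the Ag libraries and 1.26% to 1.37% in the Ag+Costim libraries. Of the 50 members, 48 reached a mean of 10 CPM. The others were Psmb11, the beta subunit of thymic epithelium, at 0 to 2.62 CPM, and Psma8, the alpha subunit of germ cells, at 0.00945 to 0.905 CPM. The filter on low counts kept 49 members, all but Psmb11, and Psma8 passed it.

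Levels per transcript length, in TPM (counts per base, scaled to 1 total in each library), ordered the members in a similar way in both groups. Psmb8, the immunoproteasome counterpart of Psmb5, was highest with 965 ± 154 TPM in Ag and 1080 ± 37.5 TPM in Ag+Costim (SD, n = 5 each). It was followed by Psmb3, a structural beta subunit (775 ± 285 and 898 ± 14.6 TPM), and Psma7, an alpha subunit (722 ± 222 and 877 ± 47.1 TPM). In Ag+Costim, Psmb3 and Psma7 differed by less than the SD of Psma7, though by more than that of Psmb3. Psmb6 (727 ± 38.3 TPM) and Psme2 (720 ± 65.5 TPM) differed by less than either SD. Subunits of the 19S particle lay lower than most core subunits, its 6 ATPases between 122 and 387 TPM and its 11 other subunits between 196 and 386 TPM in Ag+Costim. The assembly factors had 81.3 to 128 TPM for the chaperones of the core and 30.8 to 67.9 TPM for those of the 19S particle. Psme4, the nuclear activator PA200, was at 8.73 ± 4.15 TPM in Ag and 5.57 ± 0.678 TPM in Ag+Costim.

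Ag+Costim cells had higher mean levels than Ag cells for nearly every proteasome gene. The Ag libraries lay far apart, and no member passed the test. By edgeR's quasi-likelihood test with Benjamini-Hochberg adjustment, 0 of 49 members tested were called, and 0.0% of the 24225 genes tested were called as well. At an unadjusted p under 0.05, 3 members were higher in Ag+Costim (Psme3, Psmd2 and Psmd1) and 0 lower, against 7.89% of all genes tested that were higher at that level. Of the 24225 genes tested, 1911 were higher and 2582 lower at that level. The fitted log2 fold change was above 0 for 47 of 49 members, with a median of 0.39, and for 40 to 43 of 49 with the other scaling factors. The share of all genes above 0 was not counted. These counts, and those by role below, therefore cannot be called particular to the proteasome genes. The members' median was 0.23 without Ag replicate 1, 0.26 without Ag replicate 4, 0.69 without Ag replicate 5 and 0.71 with no filter on low counts. Over genes at 10 CPM or above on average, the medians in these settings were 0.17, 0.21, 0.36 and 0.56. In the main fit, the values were as follows. The median was -0.32 over all genes tested and 0.24 over the 8623 genes at 10 CPM or above on average. Other scalings lowered all of these together: with total counts the medians were 0.23 for the members and -0.65 for all genes tested. In 2 members every Ag+Costim library was above every Ag library, and in none was every one below. Among genes of that abundance, 11.3% were wholly above and 0.232% wholly below, so the members' 2 of 48 was under the background. In bulk RNA, fewer cells of a type and less RNA per cell cannot be told apart.

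The other tools differed in what they called. DESeq2 called 1 member, Psme3, higher in Ag+Costim (adjusted p = 0.0142 by DESeq2), where it called 2.56% of all genes with an adjusted p. limma voom with library quality weights called 47 members higher and 0 lower with a median log2 fold change of 1.16, where it called 25.7% of all genes higher. Of the 24225 genes tested, it called 6221 higher and 6370 lower. Its weights were 0.0987 for Ag replicate 2 and 0.0657 for Ag replicate 5, against 0.509 to 3.35 for the other 8 libraries. This fit therefore compared Ag+Costim mainly with Ag replicates 1, 3 and 4.

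**Figure D1:**
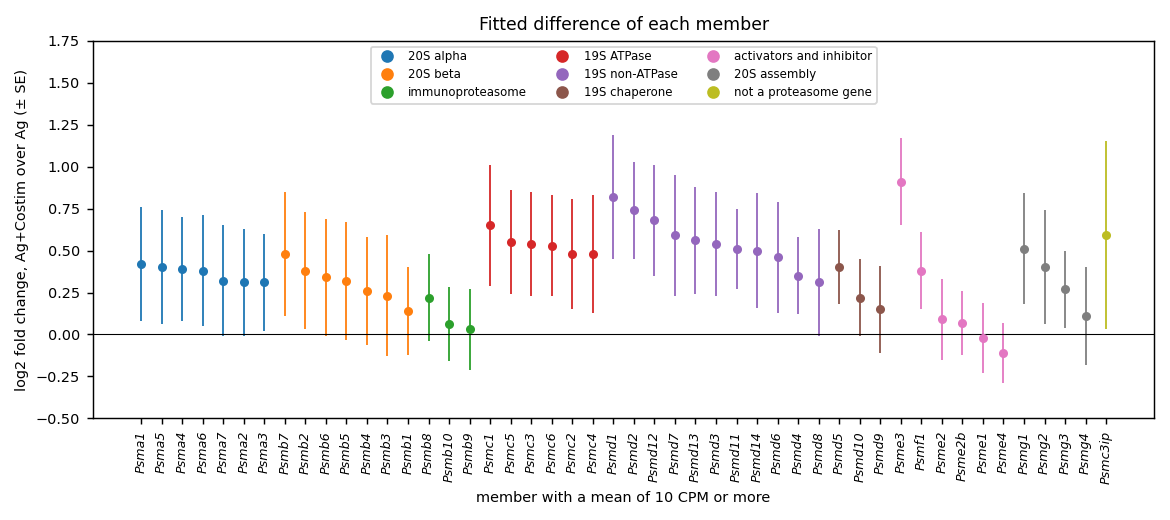
Log2 fold change of Ag+Costim over Ag from edgeR for each of the 48 members at 10 CPM or above on average (points, with SE as bars), grouped and coloured by role. Most points lie above 0, with Psme3 highest at 0.91 and Psme1 and Psme4 just below 0, and the 19S subunits lie above the immunoproteasome subunits.

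The spread in Ag was shared by the members. The median SD of log2 CPM over the 49 members was 0.76 in Ag, where genes at 10 CPM or above on average had 0.47, and 0.099 in Ag+Costim, where those genes had 0.123. That comparison set starts at 10 CPM and was not matched to the members, most of which lay well above it, and Psma8 lay below it. In 47 of 48 members, Ag replicates 2 and 5 were both above Ag replicates 1, 3 and 4. In 44 of 48, Ag replicate 1 or 4 was the lowest of all 10 libraries, and in 39 of 48 Ag replicate 5 was above every Ag+Costim library. The exception to the first pattern was Psme4. How many of all genes at that abundance followed these library orders was not counted, so they cannot be called particular to the proteasome genes.

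Without Ag replicates 2 and 5, all 5 Ag+Costim libraries were above the remaining 3 Ag libraries for 47 of 48 members, where 61.6% of all genes at 10 CPM or above did so. edgeR then called 47 members higher and 0 lower, with a median log2 fold change of 1.17, where it called 17.9% of all genes tested higher. Of the 33421 genes tested in that fit, 5987 were called higher and 10293 lower. With Ag replicates 2 and 5 as the only Ag libraries, the direction turned: the median was -0.21, and edgeR called 6 members lower and 1 higher, where it called 3.36% of all genes tested lower and 7.58% higher. In that selection 16 members lay wholly below and 2 wholly above, where 19.8% of all genes at 10 CPM or above lay wholly below and 23.0% wholly above. These selections were chosen after the data had been seen, from the number of genes with a count. Because Ag replicates 2 and 5 were the highest Ag libraries in nearly all members, leaving them out raises the members' fold changes by construction. Keeping only them lowers these values in the same way. The calls are therefore no separate support for a difference, and genes of low count weigh in the shares of all genes tested. A list of 18 cell cycle genes moved with the same libraries: its mean level was 6.09, 9.06, 8.36, 6.19 and 9.12 log2 CPM in Ag replicates 1 to 5 and 9.06 to 9.34 in Ag+Costim, with none of the 18 at 0 in every library. The part of proliferation, of B cell RNA or of the number of genes with a count in these differences was not tested.

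**Figure D2:**
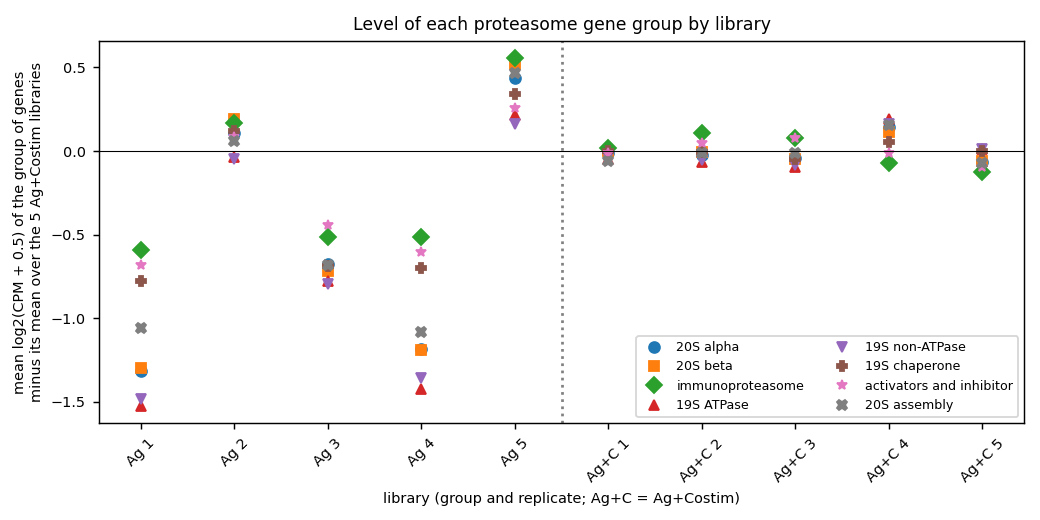
Mean log2(CPM + 0.5) of the members of each role group in the 10 libraries, relative to that group's mean over the 5 Ag+Costim libraries (horizontal line at 0). Each marker shape is a role group. Ag replicates 1 and 4 lie lowest, Ag replicate 3 between, and Ag replicates 2 and 5 near or above the Ag+Costim libraries, and the immunoproteasome group is the least lowered in Ag replicate 1.

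Psme3 had the highest log2 fold change of all members. It encodes PA28 gamma, a nuclear activator that caps the core without ubiquitin. It was at 118, 275, 224, 130 and 275 CPM in Ag replicates 1 to 5 and at 368, 354, 342, 459 and 393 CPM in Ag+Costim replicates 1 to 5. The groups did not overlap, and even Ag replicates 2 and 5 were below the lowest Ag+Costim library. The means were 204 ± 76.4 and 383 ± 46.4 CPM (SD, n = 5 each), a log2 fold change of 0.91 ± 0.26 (SE) with an adjusted p of 0.201 by edgeR. The value lay between 0.70 and 1.29 under the other scalings and filters, so its direction did not rest on the scaling. No other gene is annotated over its position (chr11:101316213-101323537, plus strand).

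Psmd2, the large 19S subunit Rpn1 that docks ubiquitin carriers, was the other member without overlap. It was at 223, 592, 418, 261 and 626 CPM in Ag and at 650, 647, 685, 814 and 748 CPM in Ag+Costim, in replicate order. Ag replicate 5 came within a few percent of the lowest Ag+Costim library. The log2 fold change was 0.74 ± 0.29 (SE), with an adjusted p of 0.257 by edgeR and 0.0536 by DESeq2. Under upper quartile scaling only 1 member was without overlap.

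Of the role groups, both classes of 19S subunits had the highest median. All 11 non-ATPase subunits were higher in the mean, with a median log2 fold change of 0.54 (0.31 to 0.82), and so were all 6 ATPases, with a median of 0.54 (0.48 to 0.65). Both medians stayed above 0 under every scaling tried, the lowest being 0.36 and 0.35 with upper quartile factors. Their levels ranged over a median of 3.38-fold and 3.30-fold between the lowest and highest Ag library, and over 1.21-fold and 1.23-fold within Ag+Costim.

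Psmd1 (Rpn2), a scaffold of the particle, was at 95, 335, 213, 108 and 381 CPM in Ag and at 379, 371, 358, 472 and 415 CPM in Ag+Costim. The groups overlapped only through Ag replicate 5, and the log2 fold change was 0.82 ± 0.37 (SE). Its locus also holds 4 other annotated genes, and the library kit did not mark strand. Psmd8 (Rpn12) had the lowest value of its group, 0.31 ± 0.32, from 154, 393, 242, 164 and 525 CPM in Ag and 376, 363, 346, 386 and 364 CPM in Ag+Costim. In this gene both Ag replicate 2 and Ag replicate 5 were above all Ag+Costim libraries.

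Psmc1 (Rpt2), whose tail helps to open the gate of the core, had the highest level per length of the ATPases in Ag+Costim and the highest fold change of the 6. Its levels were 112, 377, 234, 120 and 435 CPM in Ag and 378, 388, 374, 465 and 405 CPM in Ag+Costim, with a log2 fold change of 0.65 ± 0.36 (SE). Only Ag replicates 2 and 5 reached the Ag+Costim range. Psmc2 (Rpt1) was lowest of the 6 by a small margin, 0.48 ± 0.33, with 107, 314, 180, 114 and 368 CPM against 281, 293, 291, 341 and 308 CPM. Neither passed the test, with adjusted p-values of 0.308 and 0.381 by edgeR.

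The 3 chaperones that assemble the 19S base had smaller values, with a median log2 fold change of 0.22 (0.15 to 0.40) that came to 0.02 with total counts. Psmd5 (S5b), which holds ATPase subunits during assembly, was at 81.4, 146, 98.0, 85.7 and 179 CPM in Ag and 147, 153, 147, 173 and 156 CPM in Ag+Costim. Psmd9 (p27) was at 26.0, 55.4, 34.0, 27.2 and 67.0 CPM in Ag and 48.0, 48.6, 44.6, 45.8 and 46.1 CPM in Ag+Costim. Its Ag+Costim libraries lay inside the Ag range, and its log2 fold change of 0.15 ± 0.26 fell just below 0 with total counts and with upper quartile factors.

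In the 20S core, the 7 alpha subunits with a mean of 10 CPM or more had values close to each other. Their log2 fold changes lay between 0.31 and 0.42, with a median of 0.38, and all 7 were above 0 under every scaling. Psma7, the most abundant, was at 226, 591, 322, 231 and 754 CPM in Ag and 509, 511, 522, 591 and 509 CPM in Ag+Costim (log2 fold change 0.32 ± 0.33). Psma1 was at 173, 548, 284, 197 and 601 CPM in Ag and 484, 479, 460, 539 and 459 CPM in Ag+Costim, the highest value of the group (0.42 ± 0.34). Psma2 gave the lowest (0.31 ± 0.32), with 212, 517, 323, 236 and 735 CPM against 496, 498, 495, 537 and 480 CPM. In all 3 the Ag libraries surrounded the Ag+Costim libraries.

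The 7 constitutive beta subunits had a median log2 fold change of 0.32 (0.14 to 0.48), and their adjusted p-values by edgeR were 0.430 or more. The 3 that carry the catalytic sites were close to each other. Psmb5 was at 114, 323, 184, 113 and 413 CPM in Ag and 284, 282, 272, 318 and 274 CPM in Ag+Costim. Psmb6 was at 153, 427, 215, 158 and 549 CPM in Ag and 382, 376, 360, 417 and 359 CPM in Ag+Costim. Their fold changes of 0.32 ± 0.35 and 0.34 ± 0.35 on the log2 scale were about the size of 1 SE. Psmb7 was at 60.6, 203, 109, 72.2 and 266 CPM in Ag and 193, 192, 190, 224 and 190 CPM in Ag+Costim, and it ranged over 4.39-fold among the Ag libraries, more than the other members with a proteasome role and a mean of 10 CPM. Its log2 fold change was 0.48 ± 0.37, and 3 other genes overlap its body.

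Among the structural beta subunits, Psmb3 was at 187, 554, 288, 190 and 708 CPM in Ag and 449, 459, 450, 462 and 439 CPM in Ag+Costim. Within Ag+Costim it varied by only 1.05-fold. Psmb1 had the lowest fold change of the constitutive core, 0.14 ± 0.26, with 244, 504, 282, 269 and 614 CPM against 431, 425, 410, 444 and 403 CPM, and the sign turned with total counts (-0.04) and upper quartile factors (-0.05).

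**Figure D3:**
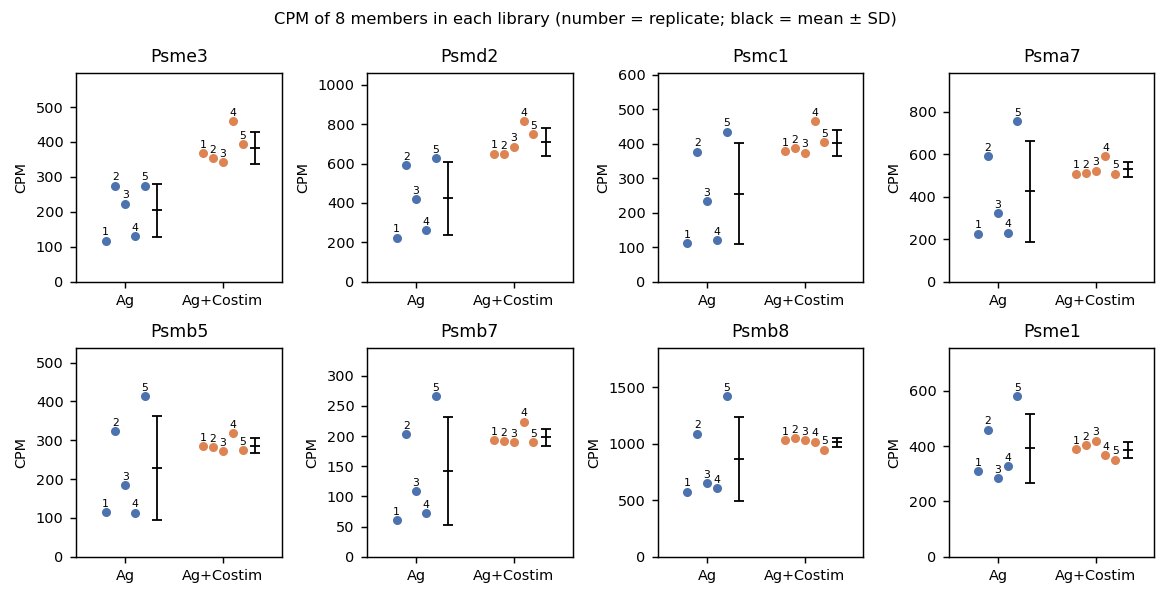
CPM of Psme3, Psmd2, Psmc1, Psma7, Psmb5, Psmb7, Psmb8 and Psme1 in each Ag (blue) and Ag+Costim (orange) library, with the replicate number above each point and the mean ± SD in black. Psme3 and Psmd2 are the 2 genes whose groups do not overlap, and in each panel Ag replicates 2 and 5 are the highest Ag libraries.

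The immunoproteasome subunits were less spread among the Ag libraries than the constitutive core. Their range from the lowest to the highest Ag library was 2.13-fold to 2.47-fold, against a median of 3.65-fold for the constitutive beta subunits and 3.41-fold for the alpha subunits. The smaller range was not theirs alone. It was 2.19-fold to 2.58-fold for the 19S chaperones and 1.87-fold to 2.40-fold for the activators and inhibitors, and the lowest of the constitutive beta subunits was 2.52-fold. Psmb8 was at 576, 1090, 653, 606 and 1420 CPM in Ag and 1030, 1050, 1030, 1020 and 946 CPM in Ag+Costim. Psmb9 was at 247, 468, 284, 275 and 574 CPM in Ag and 385, 402, 397, 345 and 354 CPM in Ag+Costim. Psmb10 was at 188, 255, 171, 189 and 364 CPM in Ag and 242, 275, 263, 227 and 212 CPM in Ag+Costim. For Psmb8 and Psmb9 the Ag+Costim values fell between those of Ag replicates 1, 3 and 4 and those of Ag replicates 2 and 5, and for Psmb10 Ag replicate 2 lay among the Ag+Costim libraries. The log2 fold changes were 0.22 ± 0.26, 0.03 ± 0.24 and 0.06 ± 0.22 (SE), and those of Psmb9 and Psmb10 turned negative with other scalings, to -0.17 and -0.15 with total counts. Psmb9 lies next to Tap1 on the opposite strand and overlaps it (chr17:34181987-34187764), so reads in the overlap could belong to either gene. Psmb8 lies 9956 bases away and overlaps Gm20496 on the opposite strand.

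Psme1 and Psme2, which form the interferon-inducible ring activator PA28, were as level as the immunoproteasome subunits. Psme1 was at 309, 460, 283, 328 and 580 CPM in Ag and 389, 403, 420, 367 and 351 CPM in Ag+Costim (log2 fold change -0.02 ± 0.21). Psme2 was at 295, 484, 296, 296 and 636 CPM in Ag and 416, 458, 471, 404 and 384 CPM in Ag+Costim (0.09 ± 0.24), and its sign turned with the scaling. Psme2b is a near-identical copy of Psme2, so the division of reads between them is uncertain. The genes Psme1 and Psme2 lie 5911 bases apart on chromosome 14. Psme3, the remaining member of the PA28 family, differed from both by about 0.8 to 0.9 on the log2 scale in its fitted value, a difference that was not itself tested.

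Psme4 was at 17.3, 33, 25.6, 18.6 and 23.0 CPM in Ag and 22.9, 23.8, 23.6, 19.3 and 19.5 CPM in Ag+Costim, with the lowest log2 fold change of all members, -0.11 ± 0.18. The sign of this value was positive with quality weights and with no filter on low counts. Psmf1, the core inhibitor PI31, had a log2 fold change of 0.38 ± 0.23. The 6 activators and inhibitors had a median of 0.08, which fell below 0 with size factors of the median-ratio kind (-0.04), total counts (-0.14) and upper quartile factors (-0.13).

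The 4 chaperones that assemble the core had a median log2 fold change of 0.34 (0.11 to 0.51). Psmg1, which pairs with Psmg2 to build the alpha ring, was at 25.4, 70.5, 36.4, 24.8 and 78.6 CPM in Ag and 62.1, 60.9, 74.1, 76.5 and 61.4 CPM in Ag+Costim. Psmg2 was at 32.9, 100, 57.5, 32.4 and 114 CPM in Ag and 86.1, 87.0, 83.0, 101 and 88.4 CPM in Ag+Costim. Psmg4 had the lowest value of the 4, 0.11 ± 0.29, with 20.5, 37.8, 23.6, 20.5 and 61.1 CPM against 34.3, 37.0, 33.5, 39.4 and 32.3 CPM, and its sign turned with total counts (-0.06). In Psmg1, Psmg2 and Psmg4, Ag replicates 1 and 4 were the lowest of the 10 libraries.

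Psmc3ip, the meiotic factor that shares the symbol, followed the same library order with a wider range. It was at 4.42, 32.7, 14.2, 4.73 and 41.1 CPM in Ag and 27.4, 29, 29, 32.8 and 28.4 CPM in Ag+Costim, a 9.30-fold range in Ag and a 1.20-fold range in Ag+Costim.

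The balance between the immunoproteasome and the constitutive core was measured within each library as the ratio of per-length levels at each catalytic position. The mean ratio of immunoproteasome to constitutive subunit was lower in Ag+Costim at all 3 positions, and 1 of the 3 differences passed the test. At the beta1 position, the ratio of Psmb9 to Psmb6 was 0.913, 0.650, 0.757, 0.986 and 0.625 in Ag and 0.597, 0.624, 0.647, 0.489 and 0.578 in Ag+Costim. Ag replicate 5 lay within the Ag+Costim range, Ag replicate 2 just above it and the other Ag libraries clearly above. The difference in log2 ratio, Ag+Costim minus Ag, was -0.40, from means of -0.77 ± 0.16 and -0.37 ± 0.29 (SD, n = 5 each; two-sided exact permutation test p = 0.0159, adjusted p over 3 ratios 0.0476). The call was lost in 8 of 10 fits that left out 1 library (adjusted p up to 0.0952) and without length correction (adjusted p = 0.107, exact permutation test), while the direction held in each. Leaving out 1 library also leaves fewer splits for the exact test, so its p-values move in larger steps. The unadjusted exact p was 0.0317 in those 8 fits and 0.0159 in the 2 that kept the call. The difference lay between -0.48 and -0.32 in these 10 fits.

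At the beta2 position, the ratio of Psmb10 to Psmb7 was 2.89, 1.16, 1.47, 2.55 and 1.24 in Ag and 1.15, 1.32, 1.26, 0.952 and 1.03 in Ag+Costim. The groups overlapped through Ag replicates 2 and 5, and the difference in log2 ratio was -0.61, which missed the threshold (exact permutation p = 0.0635, adjusted 0.0952). At the beta5 position, the ratio of Psmb8 to Psmb5 was 3.15, 2.13, 2.19, 3.34 and 2.09 in Ag and 2.24, 2.35, 2.31, 2.04 and 2.19 in Ag+Costim. Only Ag replicates 1 and 4 stood above the Ag+Costim libraries, and the difference of -0.18 on the log2 scale missed the threshold (exact permutation p = 0.381). All 3 ratios were highest in Ag replicates 1 and 4, the libraries with the lowest cell cycle level. The B cell markers lay at 4.68 and 5.07 log2 CPM in these 2 libraries. They lay at 6.1 in Ag replicate 3, at 1.05 and 1.13 in Ag replicates 2 and 5, and at 1.63 to 2.85 in Ag+Costim. The part of the cell cycle level or of B cell RNA in the ratios was not tested. The smallest exact p that is possible with no library left out is 0.00794.

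**Figure D4:**
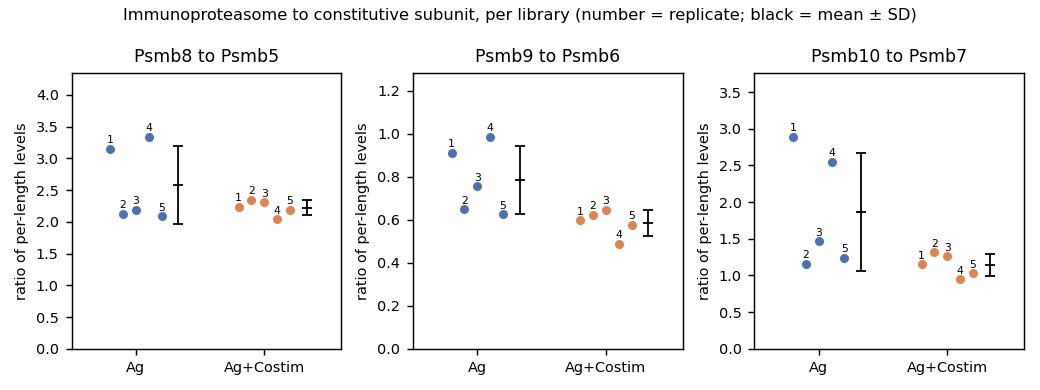
Ratio of per-length levels of the immunoproteasome subunit to the constitutive subunit it replaces, in each Ag (blue) and Ag+Costim (orange) library, with replicate numbers and mean ± SD in black. In all 3 panels Ag replicates 1 and 4 are highest and Ag replicates 2 and 5 lie at or near the Ag+Costim libraries.

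Genes that work with the proteasome were measured from a separate list. Of 13 such partners found, including ubiquitin receptors, deubiquitinases and the transcription factors of proteasome genes, 0 were called by edgeR, all 13 had a log2 fold change of 0 or more and 4 had an unadjusted p under 0.05. These stand beside 7.89% of all genes tested that were higher at that unadjusted level, and the share of all genes above 0 was not counted. limma voom with quality weights called 10 of the 13 higher (25.7% of all genes), and DESeq2 called 1 (2.56% of all genes were called higher). Ube3c, a ubiquitin ligase that acts at the proteasome, had the lowest p and was the 1 partner without overlap between groups, as were 11.3% of genes at 10 CPM or above, with 21.8, 27.7, 23.3, 22.7 and 21.3 CPM in Ag and 29.7, 34.0, 33.8, 27.8 and 31.9 CPM in Ag+Costim (log2 fold change 0.43 ± 0.12, adjusted p = 0.201 by edgeR). It was lowest in Ag replicate 5, the library in which most subunits were highest. Ddi2, the protease that activates Nfe2l1, came next, with 25.5, 33.6, 41.2, 36.3 and 37.6 CPM in Ag and 36.2, 46.5, 49.2, 43.9 and 47.4 CPM in Ag+Costim (0.36 ± 0.15).

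The list of 8 interferon regulators and neighbours of the immunoproteasome genes did not separate the groups. Its mean level was 7.31 to 7.75 log2 CPM in Ag and 7.61 to 8.0 in Ag+Costim, with 7 genes higher, 1 lower, 0 called by edgeR and 0 at an unadjusted p under 0.05. limma voom with quality weights called 1 of the 8, Irf8, higher. Irf8, an interferon regulatory factor, had the lowest p (log2 fold change 0.67 ± 0.33, adjusted p = 0.283 by edgeR), from 19.6, 50.5, 63.1, 23.3 and 69.0 CPM in Ag to 71.0, 70.7, 80.0, 62.5 and 74.1 CPM in Ag+Costim. Tap2, a subunit of the peptide transporter of MHC class I, followed with 219, 294, 217, 321 and 320 CPM against 313, 325, 384, 291 and 346 CPM (0.27 ± 0.17). In Tap2, Ag replicate 4 was level with Ag replicate 5, where in most proteasome genes it was among the lowest.

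Transcript usage, the share of each transcript in its gene's counts, was tested in 45 members with 217 transcripts. By edgeR's test of differential usage 0 members were called, where 0.517% of the 10440 genes tested were, and 5 of the 45 members had an unadjusted p under 0.05, where 11.4% of all genes tested did. The largest change of a share was in Psmb1. Psmb1-201, the full-length transcript, held 48.6%, 42.6%, 50.4%, 47.2% and 47.0% of the gene's counts in Ag and 77.7%, 80.3%, 60.0%, 59.2% and 89.7% in Ag+Costim. Psmb1-202, which reads into the last intron at the boundary printed above, held 50.8%, 57.0%, 49.1%, 52.4% and 45.6% in Ag and 18.4%, 17.5%, 32.9%, 40.1% and 7.44% in Ag+Costim. The groups did not overlap for either transcript, whose shares nearly mirror each other. Here, unlike at the gene level, Ag replicates 2 and 5 lay with the other Ag libraries. How many of all transcripts tested were without overlap was not counted. The change of Psmb1-202 was -27.7 percentage points (51.0 ± 4.21% against 23.3 ± 13.1%, SD, n = 5 each), with an adjusted p of 0.333 by edgeR.

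The adjusted p of Psmb1 was 0.0602 with limma's diffSplice and 1.81e-05 by edgeR without Ag replicate 5, a fit that called 3.52% of all genes tested. That library was the single one with more than 0.15% of Psmb1-204 in Ag (7.22%). Shares of overlapping transcripts are estimates of the assembler, and the deposited splicing table has 4 events in Psmb1, all exons with a PSI (the share of transcripts that include a segment) of 0.9999 or more in both groups, and none for this intron. Retained-intron transcripts of all members together took 5.66% to 10.6% of their counts in Ag, highest in Ag replicates 1 and 4, and 5.92% to 7.50% in Ag+Costim. Over all protein-coding genes the share was also highest in those libraries, at 5.57% and 5.36%, with 2.25% to 4.14% in the other Ag libraries and 2.57% to 3.22% in Ag+Costim. Psmb1-202 is annotated as protein coding and is not among these.

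Psme4 had the lowest unadjusted usage p, 0.00721 (adjusted p = 0.206 by edgeR). A short non-coding transcript, Psme4-205, held 9.36% of its counts in Ag replicate 3 and 0.196% to 1.63% in the other 9 libraries. In Psmc4 (Rpt3), the retained-intron transcript Psmc4-204 held 1.18% to 2.07% in the 5 Ag libraries, and in Ag+Costim 8.98%, 1.04%, 8.29%, 11.6% and 1.19%. The Ag+Costim libraries thus fell into 2 sets, of which 1 was at the Ag level. Psmc1 was made up almost wholly of 1 transcript in every library, at 99.0% to 99.9%.

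**Figure D5:**
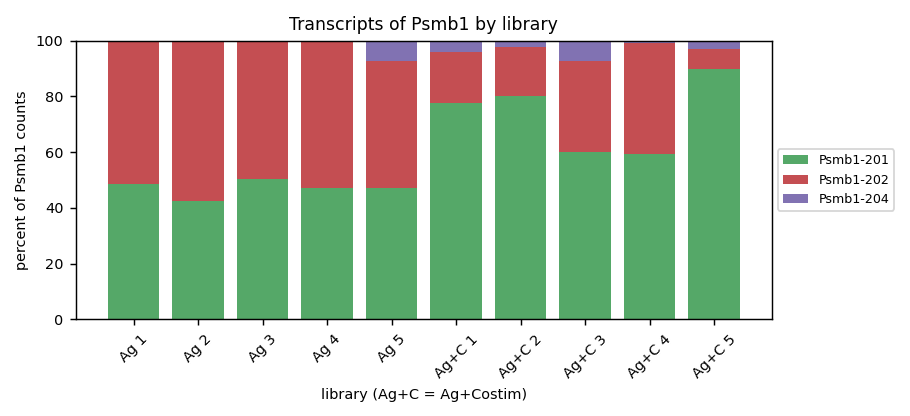
Percent of Psmb1 counts assigned to Psmb1-201 (green), Psmb1-202 (red) and Psmb1-204 (violet) in each library. Psmb1-201 holds 42.6% to 50.4% in the Ag libraries and 59.2% to 89.7% in the Ag+Costim libraries.

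The splicing table gave 1 PSI value per group, so its differences have no replicate check. It held 460 events in 48 members, of which 384 were core exons and 64 tandem transcript starts or ends. Of the core exons, 374 had a PSI over 0.95 in both groups. No event passed a probability over 0.9 with a PSI difference over 0.05, thresholds that 1.05% of all 138940 events passed. A difference over 0.05 was found for 10 events in 6 members, with probabilities up to 0.879. How many of all events had such a difference was not counted. Exons of Psma8, a gene at 0.00945 to 0.905 CPM in Ag, were among them. The starts of Psmd8 and Psmg1 and the ends of Psmd4 came as neighbouring segments with opposite changes, so the events were not all separate. The event nearest the thresholds was a start of Psmd8 (chr7:29180674-29180701), whose PSI was 0.525 for the Ag group against 0.458 for the Ag+Costim group. A core exon of Psmc3 (Rpt5, chr2:91063897-91063964) went from 0.960 (Ag) to 0.874 (Ag+Costim) at a probability of 0.79.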

How the data were processed

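Poly(A) RNA was prepared with SMART-Seq v4 and Nextera XT, which do not mark strand. Per the labels and the study's methods, the authors aligned reads to mm10 with HISAT2 2.1.0, sorted them with SAMtools 1.9 and derived counts with StringTie 2.1.0. The deposited tables hold an estimated count per gene and transcript, which the authors computed from coverage with StringTie and which is already whole, so totals are not read numbers and precision covers only the spread between libraries. The deposited Whippet table holds PSI as a fraction per group, and a difference and a probability as scores. The role groups, members and lists were chosen with earlier results of these data known, and the role group named genes are the most abundant member and the members with the highest and lowest fold change, beside the catalytic pairs, Psme1 and Psme2.

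Entries without a GENCODE M21 identifier (0.076% of counts) were left out. Differences between groups were fitted over all genes in edgeR 4.0.16 (R 4.3.3, quasi-likelihood, filterByExpr, TMM, robust), with Benjamini-Hochberg adjustment and a threshold of 0.05. Transcript usage was tested with edgeR's diffSpliceDGE, requiring a share change over 0.1. DESeq2 1.42.0 and limma 3.58.1 were alternatives. TPM were computed from transcript counts and lengths, log2 CPM with a pseudocount of 0.5, and ratios were compared by an exact permutation test in SciPy. Scripts were tested on simulated data. The facility's sheet gives lane 4 for every library. Naive libraries were not analysed here.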

Additional observations from a re-analysis of the deposited data

Results flagged for a closer look

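Of 62 groups of 5 values examined (25 named members, 3 ratios and 3 transcripts of Psmb1 in each condition), 5 held a library far from the other 4 by Dixon's criterion, where chance marks about 1 group in 20. In Ag+Costim, replicate 4 stood above the others for Psma7 (591 CPM against 509 to 522), Psmb5 (318 against 272 to 284) and Psmb7 (224 against 190 to 193). Replicate 5 of Ag+Costim stood below the others for Psmb8 (946 CPM against 1020 to 1050). In Ag, replicate 5 had 7.22% of its Psmb1 counts on Psmb1-204, where the other 4 had 0.0645% to 0.150%.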

How the results depend on the processing

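The count of members called by edgeR was 0 under every scaling, filter and omission of 1 library. It was 1 with DESeq2 and 47 with limma voom and quality weights, and, in selections of libraries chosen after the data had been seen, 47 without Ag replicates 2 and 5 and 7 without Ag replicates 1, 3 and 4. The median log2 fold change was 1.16 with quality weights and 1.17 without Ag replicates 2 and 5. Members without overlap numbered 1 with upper quartile factors, 5 with factors from the unfiltered table, 47 and 18 in the selections of libraries, and 2 to 7 when 1 library was left out, 7 being without Ag replicate 5. Genes at 10 CPM or above that lay wholly above made up 3.82% with upper quartile factors, 25.7% with factors from the unfiltered table and 19.4% without Ag replicate 5. The log2 difference of the Psmb9 to Psmb6 ratio was -0.43 without length correction and lay between -0.48 and -0.32 with 1 library left out. Psmb1 was the 1 member called for usage without Ag replicate 5, a fit that called 3.52% of all genes, and the other omissions gave 0. No event of a member passed the stricter thresholds of the splicing table.

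Log2 fold changes near 0 changed sign. With median-ratio factors they were -0.05 for Psmb10, -0.08 for Psmb9 and -0.02 for Psme2. With total counts they were -0.04 for Psmb1, -0.15 for Psmb10, -0.17 for Psmb9, -0.03 for Psmd9, -0.11 for Psme2 and -0.06 for Psmg4, and with upper quartile factors -0.05, -0.15, -0.17, -0.04, -0.12 and -0.08. DESeq2 gave -0.05 for Psmb10, -0.07 for Psmb9 and -0.02 for Psme2. Without a filter Psme1 was 0.27 and Psme4 0.26, and with quality weights 0.25 and 0.22. With 1 library left out, Psmb10 ranged from -0.03 to 0.29, Psmb9 from -0.08 to 0.26, Psme1 from -0.12 to 0.18, Psme2 from -0.0016 to 0.33, Psme4 from -0.20 to 0.07 and Psmg4 from -0.02 to 0.48. Apart from the libraries left out by construction, the cause was not tested.

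Deviations of same-numbered libraries from their group means had correlations from -0.278 to 0.264. Libraries of different number were not compared, so these values do not settle whether the shared replicate numbers pair the libraries. The main fits treated them as unpaired. A replicate block called 0 members, gave a median of 0.56 and a Psme1 value of 0.03, and left the Psmb9 to Psmb6 difference at -0.40 with an exact p of 0.0625, the smallest that 5 pairs allow, and 0 members for usage.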
